A study of Mus musculus with 10 samples.

Results

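The genes described here are 7 members of the Serpina family whose products, where they are made as proteins, circulate in blood: Serpina1e, Serpina4-ps1, Serpina6, Serpina7, Serpina10, Serpina11 and Serpina12. They were found as the probe sets annotated to these 7 symbols, 10 probe sets in all, out of 18194 genes measured on the array. For a gene with several, the probe set brightest on average across the 10 arrays was used, and all 7 chosen probe sets had a mean signal above 91, the minimum applied to every gene, which 11508 genes passed. Serpina1e had no probe set of its own. Its only probe set is also annotated to Serpina1c and Serpina1b, so it is called the shared Serpina1e/1c/1b probe set below, and its signal cannot be assigned to any of the 3 genes.

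Liver RNA of 129/B6 mice was hybridised to 10 Affymetrix arrays. In aged mice, all lacking Gnmt (glycine N-methyltransferase, a liver enzyme that consumes the methyl donor S-adenosylmethionine), the samples were 2 hepatocellular carcinomas (HCC) with their adjacent liver, 1 pair from a female of 14 months and 1 from a male of 18 months, and a sample of dysplastic nodules with adjacent liver from a female of 21 months. At 11 weeks there were 2 Gnmt knockout samples and 2 wild-type samples, 1 female and 1 male of each genotype, and each was RNA pooled in equal parts from 3 mice. No aged wild-type liver was analysed here, so every lesion and every adjacent liver carries the Gnmt deletion. The labels name a knockout without giving the allele, and a pool of mice hides the spread between its animals. Lesions were paired with adjacent liver by sex and age, which the labels allow but do not state. Samples described below as of the same mouse or animal are those matched in this way.

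The arrays carried the genotypes that their labels give. Gnmt had signals of 245.2 and 190 in the 11-week knockout pools, against 59472.6 and 52139.9 in the wild-type pools, and 11.7 to 329.4 on the 6 aged knockout arrays. The 7 measured hepatocyte markers all passed the signal minimum and their summed signal was 332359 to 591498 on every array. Several other array features differed between groups of samples. Summed endothelial markers were 4793.5 to 4912.8 in the knockout pools, against 9411.2 to 12187 in the wild-type pools, with Pecam1 below the minimum. Summed macrophage and Kupffer cell markers were 11222 to 12532.8 in the knockout pools, against 13801.3 to 21030.2 in the wild-type pools. Summed neutrophil markers were 13968.3 and 13975.9 on the arrays of the male mouse with HCC, against 397.4 to 1725 on the other 8. No T and NK cell marker and no adipocyte marker passed the minimum. The Actb 3′ to 5′ signal ratio was 3.38 and 3.18 in the knockout pools, against 2.62 and 2.60 in the wild-type pools. The same ratio for Gapdh overlapped, at 0.955 and 1.09 in the knockout pools and 0.938 and 0.982 in the wild-type pools. The ratio of the spiked control BioC to BioB was 1.45 to 1.84 on the aged arrays, against 3.90 to 5.09 on the 11-week arrays. The part of these differences in the Serpina results was not tested.

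Serpins are proteins with a mobile reactive loop. In the inhibitors among them, a protease cuts the loop as if it were a substrate and is then trapped in a covalent complex. Hepatocytes secrete most plasma members of clade A. Corticosteroid-binding globulin, encoded by Serpina6, and thyroxine-binding globulin, encoded by Serpina7, keep the serpin fold but carry cortisol or corticosterone and thyroid hormone in place of inhibiting a protease. Alpha-1-antitrypsin, which mice encode in several near-identical Serpina1 copies, inhibits neutrophil elastase in humans. Serpina10 encodes the protein Z-dependent protease inhibitor, which inactivates coagulation factor Xa, and Serpina12 encodes vaspin, first described as an adipose-tissue secretion and known in humans as an inhibitor of the protease KLK7. Serpina11 is a liver-expressed serpin with little known of its function. Serpina4-ps1 is a mouse pseudogene related to the human gene of kallistatin, an inhibitor of tissue kallikrein.

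In the RefSeq annotation of GRCm38.p6, 6 of the 7 genes lie within 470.2 kb of chromosome 12. They are Serpina10 (chr12:103616675-103631490), Serpina6 (chr12:103646630-103657218), Serpina1e (chr12:103946931-103956897), Serpina11 (chr12:103980243-103989968), Serpina12 (chr12:104028769-104044443) and Serpina4-ps1 (chr12:104077959-104086920), which RefSeq lists as a transcribed pseudogene. Serpina7 lies apart from them on the X chromosome (chrX:139079249-139085236). Those with an entry among the RefSeq promoter windows used here were Serpina1e, Serpina7, Serpina11 and Serpina12, and all 4 lie on the minus strand. The 250 bases before the start that the window table uses are printed because Serpina7, Serpina12 and the shared probe set passed a test below in opposite directions or in different comparisons, and because the Serpina11 window holds a searched motif. The windows are chrX:139085237-139085486 for Serpina7, chr12:104044444-104044693 for Serpina12, chr12:103956898-103957147 for Serpina1e and chr12:103989958-103990207 for Serpina11, each written 5′ to 3′ on the gene's strand, with a motif match in capitals. The Serpina11 window reaches into the annotated gene, since its start in the window table is downstream of the gene's outer end.
Serpina7: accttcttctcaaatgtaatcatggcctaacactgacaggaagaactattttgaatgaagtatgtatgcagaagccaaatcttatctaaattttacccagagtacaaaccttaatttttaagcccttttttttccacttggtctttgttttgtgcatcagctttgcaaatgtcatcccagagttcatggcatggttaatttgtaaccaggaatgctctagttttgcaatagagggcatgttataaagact
Serpina12: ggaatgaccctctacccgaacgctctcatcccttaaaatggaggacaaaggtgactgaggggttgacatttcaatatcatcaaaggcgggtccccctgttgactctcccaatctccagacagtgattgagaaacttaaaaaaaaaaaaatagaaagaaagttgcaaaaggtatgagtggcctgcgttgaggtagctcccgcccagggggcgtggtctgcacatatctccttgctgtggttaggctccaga
Serpina1e: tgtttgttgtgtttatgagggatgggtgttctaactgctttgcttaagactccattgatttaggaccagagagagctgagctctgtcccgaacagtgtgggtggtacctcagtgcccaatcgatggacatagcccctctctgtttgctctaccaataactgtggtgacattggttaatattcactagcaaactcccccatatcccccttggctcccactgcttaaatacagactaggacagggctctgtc
Serpina11: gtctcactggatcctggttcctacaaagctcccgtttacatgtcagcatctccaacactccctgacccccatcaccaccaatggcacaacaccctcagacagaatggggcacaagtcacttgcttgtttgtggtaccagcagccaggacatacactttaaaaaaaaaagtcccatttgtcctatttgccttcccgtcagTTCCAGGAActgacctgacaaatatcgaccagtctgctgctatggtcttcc
The windows were searched on both strands for 5 motifs: TTCNNNGAA (STAT5), TGTTTAC (FOXA), CAAAGTCCA (HNF4A) and the palindromic HNF1 and glucocorticoid receptor motifs. The Serpina11 window held 1 match, TTCCAGGAA, whose first base lies 51 bases before the start used in the window table. Over all 32851 RefSeq windows of the same length, 7.02% held the STAT5 pattern, 3.17% the FOXA pattern, 0.384% the HNF4A pattern and 0.00913% each of the last 2 patterns. No other match was found in the 4 windows, so none overlapped. The Serpina7 window was poorer in G and C, at 36%, than those of Serpina1e (48%), Serpina12 (48.4%) and Serpina11 (49.2%).

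**Figure D1:**
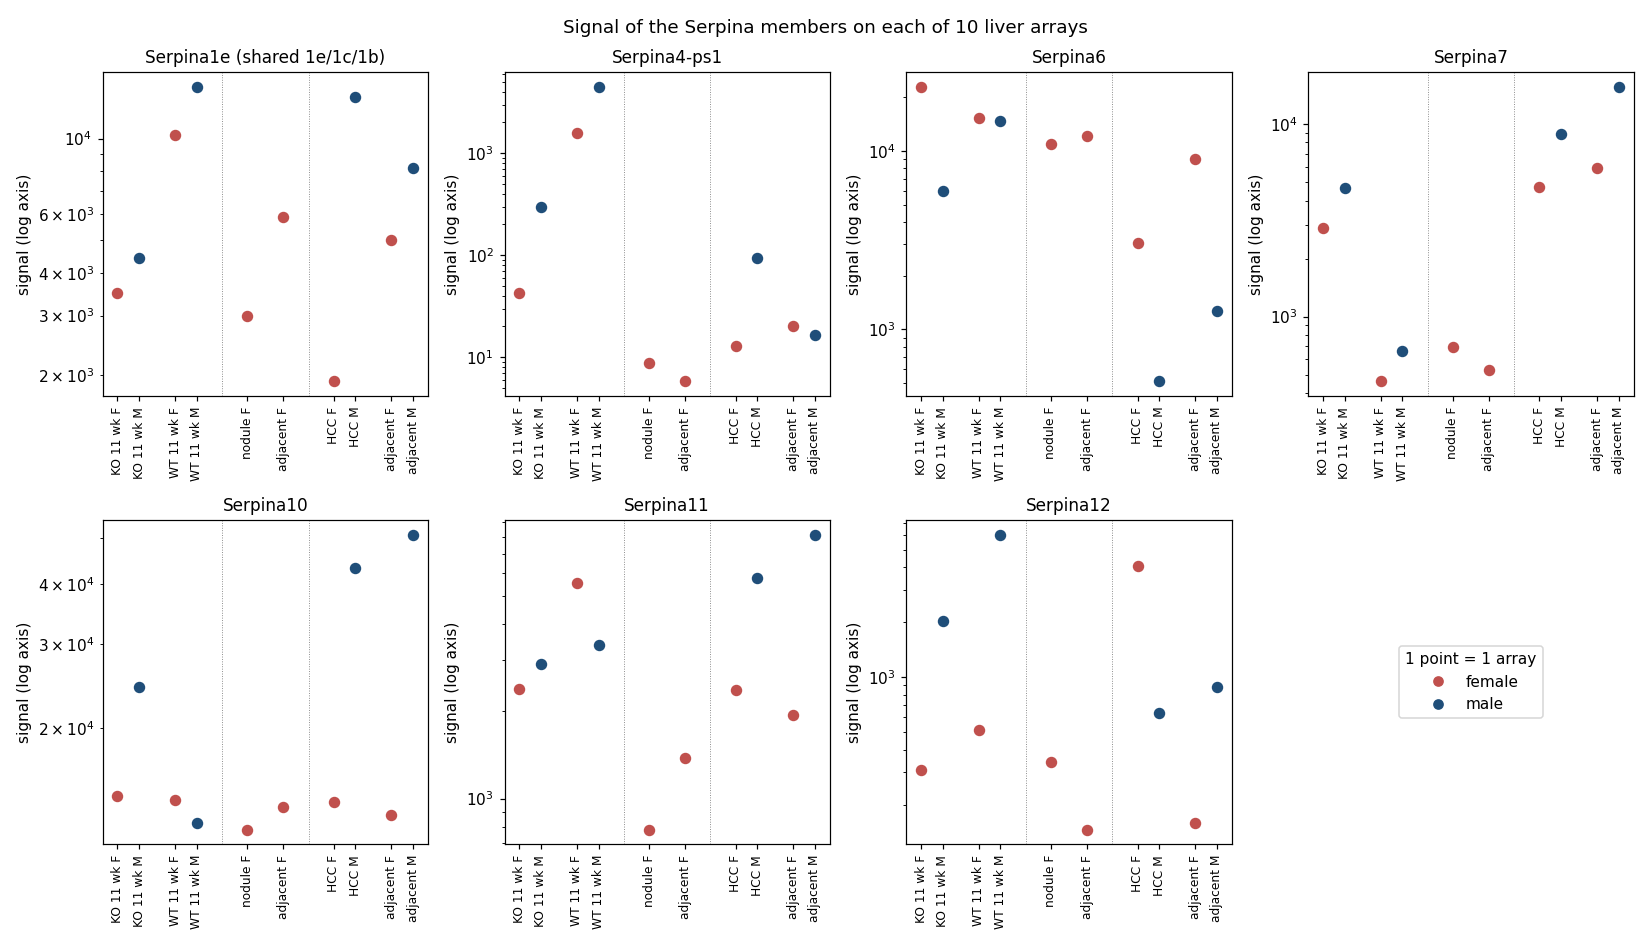
Signal of the representative probe set of each member on each of the 10 arrays (log axis, linear GCOS signal), with 1 point per array, females in red and males in blue. KO is Gnmt knockout and WT wild type at 11 weeks, and adjacent is the liver beside the lesion named to its left. Serpina4-ps1 is highest in the 2 wild-type pools, and Serpina6 is lowest and Serpina7, Serpina10 and Serpina11 are highest on the 2 arrays of the male mouse with HCC.

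At 11 weeks, knockout livers differed from wild-type livers in 3 of the 7 members. Serpina7 rose 6.46-fold, the shared Serpina1e/1c/1b probe set fell 3.07-fold and Serpina4-ps1 fell about 19.6-fold. Serpina4-ps1 passed the signal minimum only through the wild-type pools, where it was high, so its call is counted here as a description only. Among all 11508 genes, 108 passed the same test, which is 0.938%, with 51 higher (0.443%) and 57 lower (0.495%). The members were chosen with earlier results of these arrays known, Serpina4-ps1 being among the strongest decreases there, so their count is not a sample of the family. A gene passed where limma's Benjamini-Hochberg adjusted p was below 0.05 on the log2 scale, after 16.8 was added to each signal. With 2 pools a genotype and sex as a term in the fit, 1 residual degree of freedom was left, and the test borrowed its spread from genes of like signal. On simulated data, fits with 1 residual degree of freedom made more false calls than the nominal rate. Calls by genotype and, below, by sex and between HCC and adjacent liver are thus less certain than their adjusted p values state. The small number of arrays limits the precision of every value. How many of all genes had 2 pools of a kind wholly above or below the other 2 was not counted. Where such a separation is given below, it is a description only.

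Of the hormone carriers, Serpina7 had signals of 2874 and 4661.2 in the female and male knockout pools, against 461.4 and 661.7 in the female and male wild-type pools. Both knockout pools lay above both wild-type pools. The group means were 3768 ± 1264 in knockouts and 562 ± 142 in wild types (SD, n = 2 pools each). The log2 difference was 2.69 ± 0.22 (SE, limma adjusted p = 0.0121), and it was 2.60 between the female pools and 2.79 between the male pools.

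Serpina6, the glucocorticoid carrier, had signals of 23008.5 and 5981.2 in the female and male knockout pools, against 15404.2 and 14777 in the female and male wild-type pools. The knockout pools lay on either side of the wild-type pools, which differed little from each other. The log2 difference was 0.58 between females and -1.30 between males, and the fitted difference of -0.36 ± 0.40 did not pass (SE, limma adjusted p = 0.674). The difference between the sexes in this response was not tested, since 1 pool stands for each sex and genotype.

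Among the protease inhibitors, the shared Serpina1e/1c/1b probe set had signals of 3485.7 and 4434.4 in the female and male knockout pools, against 10280.6 and 14243.1 in the female and male wild-type pools. The knockout pools lay below the wild-type pools in both sexes. The group means were 3960 ± 671 in knockouts and 12262 ± 2802 in wild types (SD, n = 2 pools each). The fitted log2 difference was -1.62 ± 0.19 (SE, limma adjusted p = 0.0243). The other probe sets of the alpha-1-antitrypsin copies gave smaller values. They were -0.07 and -0.14 for the 2 probe sets of Serpina1b alone, -0.30 for the probe set of Serpina1c alone and -0.48 for a probe set shared by Serpina1d and Serpina1a, as mean log2 differences over the sexes. Near-identical copies may bind each other's probes, so these values cannot be divided among the genes.

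Serpina10, the protein Z-dependent inhibitor, had signals of 14430.1 and 24351 in the female and male knockout pools, against 14160.4 and 12678.4 in the wild-type pools of the same sexes. Only the male knockout pool stood apart, and the fitted log2 difference of 0.48 ± 0.25 did not pass (SE, limma adjusted p = 0.349). Serpina11 had 2384.8 and 2902.5 in the knockout pools, against 5543.2 and 3375.1 in the wild-type pools. The log2 difference was -1.21 in females and -0.22 in males, and the fitted value of -0.71 ± 0.28 did not pass (SE, limma adjusted p = 0.238).

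Serpina12 (vaspin) had signals of 310.7 and 2023.6 in the female and male knockout pools, against 513.5 and 6019.4 in the female and male wild-type pools. The knockout pool was below the wild-type pool of its own sex, and the sexes were far apart in both genotypes. The fitted log2 difference of -1.13 ± 0.28 did not pass (SE, limma adjusted p = 0.113).

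The pseudogene Serpina4-ps1 had signals of 43 and 296.7 in the female and male knockout pools, against 1586.3 and 4494 in the female and male wild-type pools. The highest knockout value was below the lowest wild-type value. The mean signal of this probe set over all arrays, 657.7, passed the signal minimum through the wild-type pools. Among all knockout arrays, aged ones included, only the male pool (296.7) and the male HCC (93) exceeded that minimum. The gene was thus admitted to the test, and to the ranking that follows, by the group in which it was high. The fitted log2 difference was -4.30 ± 0.29 (SE, limma adjusted p = 0.0109), the third largest in size among all genes tested, after those of Gnmt and Hsd3b5. It was -4.74 between the female pools and -3.85 between the male pools. Its other 2 probe sets moved the same way. One had 26.6 and 315.2 in knockout pools, against 1745.2 and 2920.2 in wild-type pools, a log2 difference of -4.24 (limma adjusted p = 0.0240). The other had 77.5 and 17 in knockout pools, against 832.6 and 2747.7 in wild-type pools, a log2 difference of -4.76 (limma adjusted p = 0.0449). The lowest of these signals is close to the added constant, so the fold change depends on it.

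In bulk liver, a lower signal from fewer cells of a type cannot be told apart from less RNA per cell. The 3 calls were lost when the spread was not tied to signal level (limma adjusted p = 0.249 for each), without the sex term (0.0669 for Serpina7, 0.115 for the shared probe set and 0.119 for Serpina4-ps1) and in a model of all 10 arrays (0.0675, 0.392 and 0.187 in the same order). Centring arrays on the 75th percentile moved the median log2 difference of all genes to 0.10, against -0.05 as deposited, and the share of higher genes among those called to 66.5%, against 47.2%. All 3 members kept their calls and directions under that centring, with log2 differences of 2.85 for Serpina7, -1.46 for the shared probe set and -4.16 for Serpina4-ps1.

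**Figure D2:**
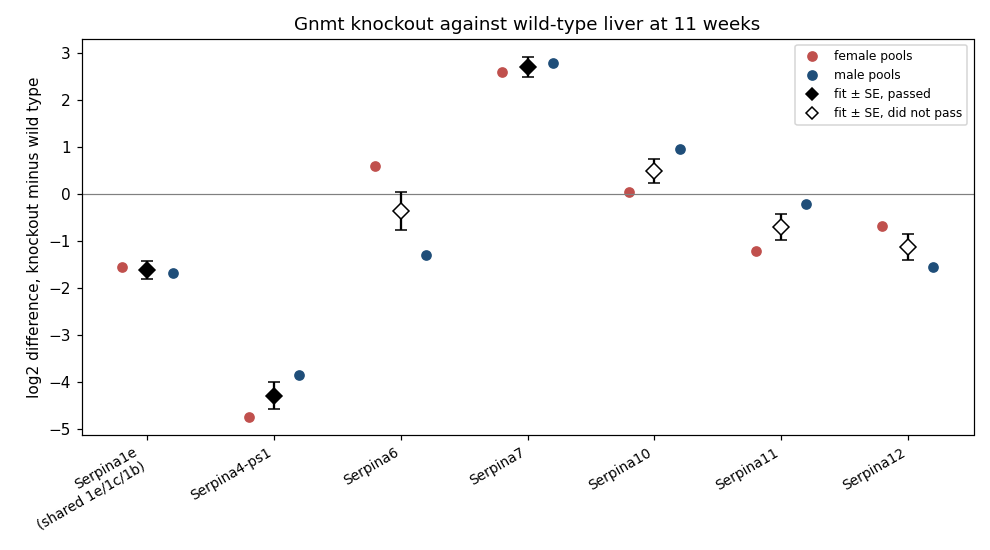
Log2 difference of each member between Gnmt knockout and wild-type liver at 11 weeks, with the female pools in red, the male pools in blue and the limma estimate ± SE as a diamond, filled where it passed the adjusted p threshold. Serpina7 is at 2.60 in females and 2.79 in males, Serpina4-ps1 at -4.74 and -3.85, and Serpina6 at 0.58 in females and -1.30 in males.

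Gene lists around the members were counted in the same test, lists that were also drawn up with earlier results known. Of the other Serpina genes, 8 were measured and 3 passed the signal minimum, Serpina1b, Serpina1c and Serpina3n, and none was called in this or any other comparison. Of 10 other serpins of liver and plasma, Serpinb6a, an intracellular inhibitor, rose by 2.40 on the log2 scale (limma adjusted p = 0.0180) and the median was -0.29, against -0.05 over all genes. None of 15 proteases and cofactors that serpins meet was called (median -0.34), the largest value being -1.43 for Elane, neutrophil elastase, which is also a neutrophil marker. None of 10 other plasma carriers was called (median -0.20), with Igfals, the acid-labile subunit that holds insulin-like growth factors in plasma, at -1.14. None of 9 genes of thyroid hormone action (median -0.44, largest Thrsp at 1.40) and none of 12 genes of glucocorticoid action (median -0.41, largest Lcn2 at 3.80) was called. None of 22 growth hormone signalling and liver transcription factor genes was called (median -0.34, largest Nr1i3 at -1.09).

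The sex-biased lists moved in part. Of 13 male-biased liver genes, 3 fell in knockouts and none rose: Hsd3b5, a steroid reductase, with a log2 difference of -6.30, Nox4, an NADPH oxidase, with -2.98 and Elovl3, a fatty acid elongase, with -1.93. The list median was -0.72. Of 12 female-biased genes, Cyp17a1, a steroid hydroxylase, rose by 2.95 and none fell as scaled by the authors, with a list median of -0.998, opposite in sign to that call, while Acnat2, Cyp2b9 and Hao2 fell with quantile normalization. Quantile normalization called 543 genes in all and some members of the other lists too: 2 more of the male-biased genes fell, as did Klkb1, Hgfac and Proc among the proteases, Igfals among the carriers, Serpinf1 among the serpins, and Ghr and Nr1i3. In the glucocorticoid list 3 genes were then higher and 2 lower. With 75th percentile centring, Akr1c18 and Mt2 of the glucocorticoid list were called higher and Slco1a1 of the male-biased list lower.

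Female and male livers at 11 weeks differed in 1 of the 7 members, Serpina12, which was 8.42-fold lower in females. Over all genes 28 passed (0.243%), 16 of them higher in females (0.139%) and 12 lower (0.104%). Serpina12 had 310.7 and 513.5 in the female pools of knockout and wild type, against 2023.6 and 6019.4 in the male pools of the same genotypes. The 2 female values lay below the 2 male values. The log2 difference was -3.07 ± 0.28 (SE, limma adjusted p = 0.0114), with -2.64 in knockouts and -3.51 in wild types. This call was lost without the spread tied to signal level (limma adjusted p = 0.255), without the genotype term (0.672), in a model of all 10 arrays (0.539) and with the mean of both probe sets (0.316). The second Serpina12 probe set was dim, at 3.6 to 110.1 over the 10 arrays, and its log2 sex difference was -0.22.

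None of the other 6 members passed in this fit, but on refitting, Serpina4-ps1 passed in 1 of 16 refits and Serpina6 in 2 of 14. Serpina4-ps1 was lower in the female pool of both genotypes, with a fitted log2 difference of -1.94 ± 0.29 (SE, limma adjusted p = 0.103). One of its other probe sets gave -1.84, and the other -0.11. Serpina6 was at a log2 difference of 1.94 between female and male knockout pools and 0.06 between the wild-type pools. Its fitted value was 1.0 ± 0.40 (SE, limma adjusted p = 0.558). Fits without the female or the male wild-type pool were made over all remaining arrays, aged ones included, and gave 2.43 for Serpina6 in both cases. That value is not of 11-week liver alone. In the aged mice the female minus male log2 difference of Serpina6 was 2.54 in HCC and 2.80 in HCC-adjacent liver. Serpina7 was at -0.60 ± 0.22, the shared Serpina1e/1c/1b probe set at -0.41 ± 0.19, Serpina10 at -0.30 ± 0.25 and Serpina11 at 0.22 ± 0.28 (log2 difference ± SE), with limma adjusted p between 0.514 and 0.842.

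Lists of known sex-biased genes, chosen for their direction, were counted in the same fit. Of the 13 male-biased genes, 7 were lower in females and none higher, with a median log2 difference of -2.72, against 0.03 over all genes. The log2 difference was -4.08 for Cyp4a12a, -4.01 for Obp2a, -3.23 for Elovl3 and -2.95 for Ugt2b38, and the Serpina12 value lay within that range. Of the 12 female-biased genes, 8 were higher and none lower, led by Sult3a1 at 10.19 and Sult2a2 at 7.22. None of the other 7 lists had a gene called by sex, apart from Serpinb1a with quantile normalization.

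**Figure D3:**
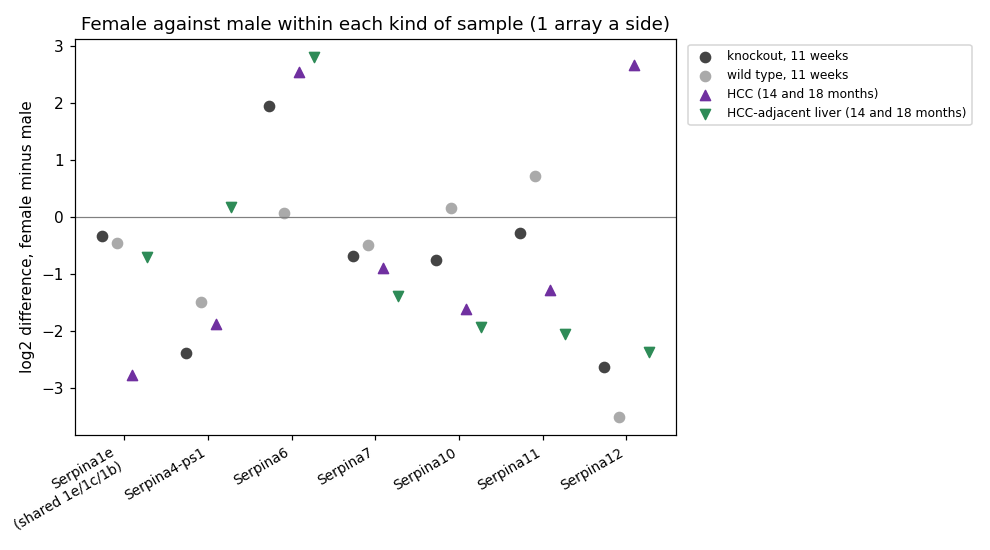
Log2 difference of each member between the female and the male sample within knockout and wild-type liver at 11 weeks, within HCC and within HCC-adjacent liver (1 array a side, the aged female being 14 and the aged male 18 months old). Serpina12 is below 0 in 3 of the 4 settings and at 2.65 in HCC.

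No member passed between HCC and adjacent liver. Only 10 genes did (0.0869%), 8 higher in HCC (0.0695%) and 2 lower (0.0174%). An unadjusted limma p below 0.05 was found for 873 of the 11508 genes, among them 1 of the 7 members, Serpina6. Serpina6 had signals of 3054.4 in the female HCC and 512.2 in the male HCC, against 9006.4 and 1277.4 in the adjacent livers of the same mice. Each HCC was below its own adjacent liver, while the female HCC was above the male adjacent liver. The log2 difference was -1.42 ± 0.27 (SE, limma adjusted p = 0.134), with -1.55 in the female pair and -1.29 in the male pair. In the nodules Serpina6 had 10918.9, against 12106 in adjacent liver, a log2 difference of -0.15. With all 3 pairs the value was -0.998 ± 0.29 (SE, limma adjusted p = 0.389).

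Serpina12 went in opposite directions in the 2 HCC pairs. Its signal was 4077.4 in the female HCC and 633.4 in the male HCC, against 157.8 and 885.1 in the adjacent livers of the same mice. The log2 difference was 4.55 in the female pair, exceeded by 7 of the 11508 genes there, and -0.47 in the male pair. The fitted value of 2.04 ± 0.90 did not pass (SE, limma adjusted p = 0.660). The dim second probe set had 109.4 in the female HCC and 110.1 in the male HCC, against 28 and 48.6 in adjacent liver. In the nodules of the female of 21 months, Serpina12 had 340.9, against 145.8 in adjacent liver. That log2 difference of 1.14 was the only one of the 7 members to reach 2-fold in the nodules, where 1495 genes did (13.0%), 993 of them higher (8.63%) and 502 lower (4.36%). With 1 array a side, the nodules had no replicate check.

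The shared Serpina1e/1c/1b probe set also split the HCC pairs. It had 1917.8 in the female HCC and 13289 in the male HCC, against 5016.4 and 8170.8 in adjacent liver, log2 differences of -1.38 and 0.70. In the nodules it had 2982.8, against 5854.4 in adjacent liver. The 2 female lesions were thus below their adjacent liver and the male lesion above it. The fitted difference over the HCC pairs was -0.34 ± 0.44 (SE, limma adjusted p = 0.933).

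Serpina7 had 4713.4 in the female HCC and 8859.6 in the male HCC, against 5918.6 and 15598 in adjacent liver. It was lower in both HCCs, by 0.33 and 0.81 on the log2 scale, and the fitted value of -0.57 ± 0.27 did not pass (SE, limma adjusted p = 0.715). Nodules had 696.2, against 529.9 in adjacent liver. Serpina10 had 14031.1 and 43218.3 in the female and male HCC, against 13194.9 and 50686.5 in adjacent liver, and 12303.8 in nodules, against 13706.9 in adjacent liver. No Serpina10 pair differed by more than 0.23 on the log2 scale. Serpina11 had 2364.9 and 5783.3 in the female and male HCC, against 1938.3 and 8121.8 in adjacent liver, and 781.6 in nodules, against 1375.8 in adjacent liver, the 2 lowest values of this gene.

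Serpina4-ps1 was dim on all 6 aged arrays. It had 12.8 and 93 in the female and male HCC, against 20.3 and 16.4 in adjacent liver, and 8.7 in nodules, against 5.8 in adjacent liver. The constant of 16.8 added before taking logs is above 4 of these 6 signals, and it sets the size of any log2 difference between them. All 8 knockout arrays were below both wild-type pools, as were those of 821 genes (7.13%), while those of 909 genes were above (7.90%). Over all 3 lesion pairs no member passed, while 1 gene did (0.00869%). Of the 11508 genes, 1125 had an unadjusted limma p below 0.05, among them 1 member, Serpina6.

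**Figure D4:**
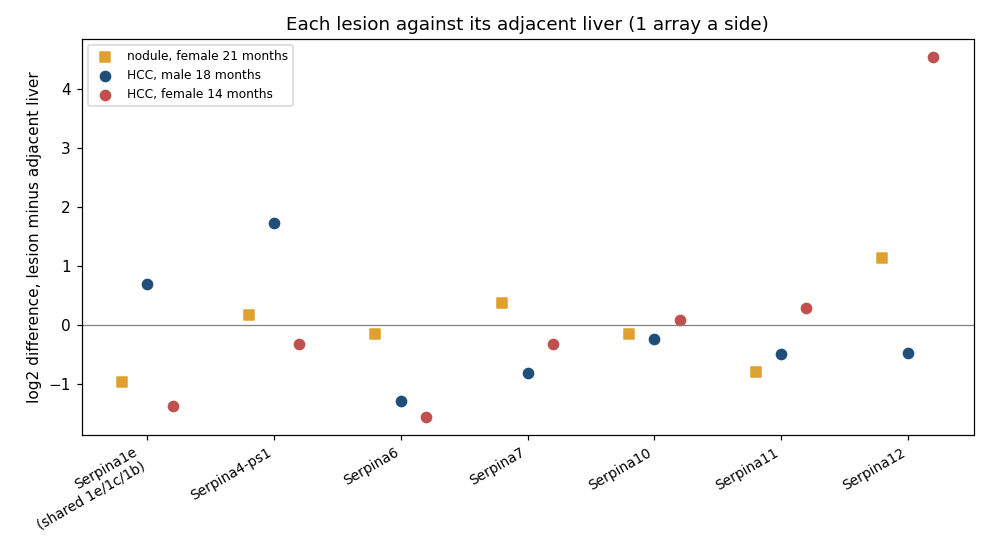
Log2 difference of each member between a lesion and its adjacent liver, with 1 array a side, for the nodules (orange squares), the male HCC (blue) and the female HCC (red). Serpina6 lies below 0 in all 3 pairs, Serpina12 is at 4.55 in the female HCC and -0.47 in the male HCC, and Serpina10 stays within 0.23 of 0.

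The lists around the members had 1 call between HCC and adjacent liver. Obp2a of the male-biased genes was lower in HCC, with a log2 difference of -2.52 (limma adjusted p = 0.0386), a call lost with quantile normalization and with 75th percentile centring. The medians of the 9 lists lay between -0.39 (glucocorticoid action) and 0.17 (thyroid hormone action), against -0.00265 over all genes. Over all 3 pairs no listed gene was called.

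Aged adjacent liver was set against 11-week liver within knockouts, with sex as a term. No gene passed (0%). Of the 11508 genes, 1394 had an unadjusted limma p below 0.05, among them 3 of the 7 members. These were Serpina6, Serpina12 and the shared Serpina1e/1c/1b probe set, and with members chosen on earlier results this count is a description only. The 3 aged adjacent livers had Serpina6 signals of 9006.4, 1277.4 and 12106, against 23008.5 and 5981.2 in the 11-week pools. Each aged sample was below the 11-week pool of its sex, with a log2 difference of -1.60 ± 0.30 (SE, limma adjusted p = 0.342). Without the female 11-week pool the Serpina6 value was -2.21, which sets the male adjacent liver against the male 11-week pool alone. Of 15 refits of this comparison, 2 called Serpina6, and 1 of them was the fit without the liver beside the nodules (-1.78, limma adjusted p = 0.0153). That fit also called other genes, whose count is given in the closing section. Serpina12 was at -1.05 ± 0.25 (adjusted p = 0.382) and the shared probe set at 0.74 ± 0.21 (adjusted p = 0.392), as limma log2 differences ± SE. Serpina7 had 5918.6, 15598 and 529.9 in the aged adjacent livers, against 2874 and 4661.2 in the 11-week pools, so that the liver beside the nodules lay below and the others above. The remaining members were at -1.99 ± 0.89 for Serpina4-ps1, 0.40 ± 0.30 for Serpina10, 0.36 ± 0.995 for Serpina7 and 0.32 ± 0.45 for Serpina11 (log2 difference ± SE). Age cannot be told apart here from the BioC to BioB ratio, which differed between the aged and the 11-week arrays, or from lesion and pooling. Each aged sample was liver beside a lesion from 1 mouse, and each 11-week sample was a pool of 3 mice.

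Across all samples, the largest range was that of Serpina4-ps1, whose highest log2 value was 7.64 above its lowest. The lowest signal of 5.8 is under the added constant of 16.8, which sets this size. Serpina6 spanned 5.44, Serpina12 5.21, Serpina7 5.03, Serpina11 3.35, the shared Serpina1e/1c/1b probe set 2.88 and Serpina10 2.04 log2 units, against a median of 1.38 over all genes that passed the signal minimum. Serpina10 thus varied least, and 2848 genes had a wider range.

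In order of level, Serpina7 was highest in HCC-adjacent liver and HCC, whose values overlapped, then in the 11-week knockout pools, then in nodules, and lowest in wild-type pools and nodule-adjacent liver, which overlapped. Serpina6 ran the other way in part: nodule and wild-type samples lay at 10918.9 to 15404.2, the 11-week knockout pools spanned them, and HCC was lowest, overlapping HCC-adjacent liver. For Serpina10, the 2 groups with HCC mice and the 11-week knockouts each spanned from about the level of the remaining samples upward, because their male samples were high. Serpina11 was lowest in nodules and nodule-adjacent liver, and the HCC, HCC-adjacent and 11-week groups overlapped, apart from the 11-week knockouts, which were below the wild types. The shared probe set was highest in wild-type pools, but the male HCC lay between them. Serpina12 was lowest in nodule-adjacent liver (145.8), and the groups holding both sexes overlapped, their female and male arrays being far apart.

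The extremes of 4 members lay in 1 animal. On the arrays of the male mouse with HCC, tumour and adjacent liver alike, Serpina7, Serpina10 and Serpina11 were above all other 8 arrays and Serpina6 was below them. This was described after the values were seen. Of all genes, 1421 were above (12.3%) and 1077 below (9.36%) on these 2 arrays in the same way. Serpina10 had 43218.3 and 50686.5 there, against 12303.8 to 24351 elsewhere. Serpina6 had 512.2 and 1277.4 there, against 3054.4 to 23008.5 elsewhere. The neutrophil marker sum given above was also high on these 2 arrays. Other marker sums were above the other 8 arrays there too: hepatocyte markers at 526615 to 591498, against at most 502457, stellate and fibroblast markers at 20874.4 to 21553.7, against at most 18195.5, cholangiocyte markers at 916.3 to 1141.1, against at most 823.8, and B and plasma cell markers at 1978.4 to 2176.9, against at most 1790.9. The part of these sums in the Serpina values was not tested.

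The genes whose log2 values ran most like each member over the 10 arrays were found by Pearson's r, as a description over arrays of which some share a mouse. For Serpina6 they were Cyp1a2 (0.986), Abat (0.983) and F13b (0.982), which encode a drug-oxidising cytochrome, a GABA transaminase and the carrier subunit of clotting factor XIII. Cyp1a2 had 4646.9 and 647.1 in the female and male HCC, against 20499.8 and 1302.1 in adjacent liver, the same order as Serpina6. For Serpina10 they were Saa3 (0.984), Reg3b (0.977) and Rrp1 (0.975), the first an acute-phase serum amyloid A and the second a secreted lectin. Saa3 had 35920.8 and 36980.2 on the arrays of the male mouse with HCC, against 354.9 to 4178.4 on the others. The likeness to Serpina10 thus lies in the same arrays, with the male 11-week knockout pool highest among the other 8 for both genes.

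For Serpina11 the most alike were Crp, which encodes C-reactive protein (0.978), Trir (0.960) and Nfkbia, the inhibitor of NF-kappa-B (0.939). Crp and Serpina11 were both lowest in nodules and highest in the liver beside the male HCC. For Serpina4-ps1 they were Haus4 (0.963), Nox4 (0.949) and Cirbp (0.945). Nox4, one of the male-biased genes that fell in knockouts, had 76.2 and 206.4 in female and male knockout pools, against 564.8 and 2205.1 in wild-type pools. Those of the shared Serpina1e/1c/1b probe set were Os9 (0.950), Nrbp2 (0.929) and C1ra (0.922), those of Serpina7 were Spdl1 (0.931), Ddx1 (0.909) and Rfc2 (0.906), and those of Serpina12 were Abhd16a (0.931), Marveld1 (0.914) and Ttc23 (0.887). No member was among the 3 genes most like another. Between members, r over the 10 arrays ran from -0.853 for Serpina6 with Serpina10 to 0.732 for Serpina7 with Serpina10.

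**Figure D5:**
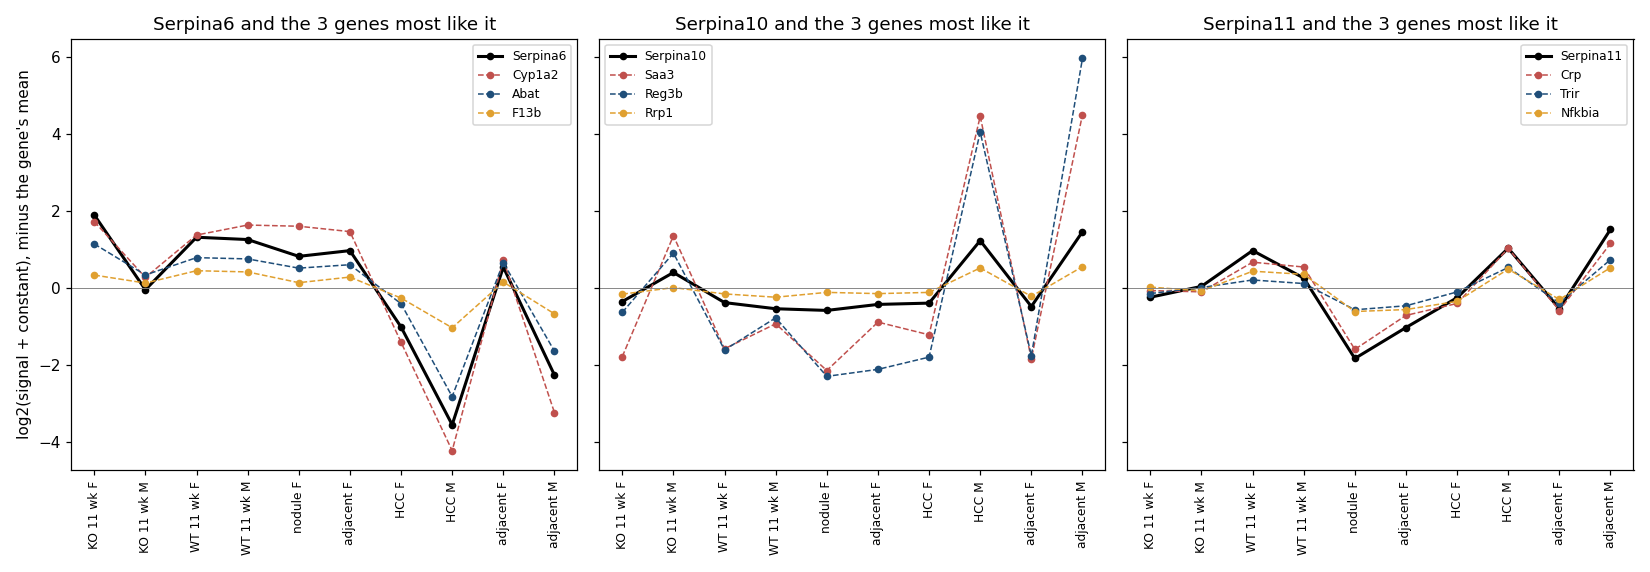
Log2 values of Serpina6, Serpina10 and Serpina11 (black) and of the 3 genes most like each (coloured, dashed) on the 10 arrays, each minus the gene's own mean, F being female and M male. Serpina6 and its 3 genes dip on both arrays of the male mouse with HCC, where Serpina10 and its 3 genes peak.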

How the data were processed

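Liver RNA was measured on 10 Affymetrix arrays. Per the labels, the authors labelled 5 ug of total RNA, and per the submitters' processing notes the software was GCOS, whose version and settings are not given in the sources used here. The authors' table holds linear intensity values for 45101 probe sets. Each array's mean was 500 once 2% of its values were trimmed from both ends, a scaling made before deposit. Detection calls were not used here.

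Gene names came from the platform annotation: 34945 probe sets list 1 gene, 932 list several and 9160 are unlisted. The shared Serpina1e probe set was kept as a feature of its own. Signals were analysed as log2(signal + 16.8), the constant being the 20th percentile of all values. Genes were kept where the mean signal of the brightest probe set exceeded 91, the median of all values. The test was limma 3.58.1 in R 4.3.3 with an intensity trend and Benjamini-Hochberg adjustment over 11508 genes in 5 comparisons, with sex, genotype or mouse as a term. It was tested on simulated data, where the fits with 1 residual degree of freedom made more false calls than the nominal rate. Members, gene lists and motifs were chosen with earlier results of these data known. The text names all 7 members, Gnmt, listed genes that were called or, in a list with none called, the one with the largest difference, kept genes of the other Serpina list, and the 3 genes most like each member. Cyp1a2, Saa3, Crp and Nox4 values, the male mouse with HCC and genes called only with quantile normalization were picked after their values were seen.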

Additional observations from a re-analysis of the deposited data

Results flagged for a closer look

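Serpina12 differed between the sexes in opposite directions in HCC and in the liver beside it. The female minus male log2 difference was 2.65 between the 2 HCCs, with signals of 4077.4 in the female and 633.4 in the male. It was -2.37 between the 2 adjacent livers, with signals of 157.8 in the female and 885.1 in the male. The dim second probe set did not show the opposite directions. It had 109.4 and 110.1 in the female and male HCC, and 28 and 48.6 in the female and male adjacent liver. Each side is 1 array, the mice differed in age as well as sex, and the difference was not tested.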

How the results depend on the processing

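The comparisons were refitted with other constants, scalings, filters, terms and probe sets, without each array in turn, and, chosen after seeing the data, with probe set and filter picked by mean log2. Of 526 refitted member values, 459 kept their direction and side of the threshold, 30 lost a call, 5 gained one and 32 changed sign, none of the 32 past the threshold. The cause of a change was not tested.

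In knockouts against wild type, genes called were 108 as reported, 543 with quantile normalization, 230 with 75th percentile centring, 31 with the mean of all probe sets, 2 without the sex term, 2 in a model of all 10 arrays and 1 without the intensity trend. Members called were 3 as reported, 0 in each of the last 3. By sex, genes called were 28 as reported, 71 with quantile normalization, 18 with the mean of probe sets, 9 in the model of all 10 arrays, 6 without the genotype term and 2 without the trend. Members called were 1 as reported, 2 with quantile normalization and 0 in the other 4. Between HCC and adjacent liver, genes called were 10 as reported, 19 with no filter, 3 with quantile normalization, 3 with 75th percentile centring and 0 without the trend, without the mouse term, with the mean of probe sets and in the model of all 10 arrays. Over all lesions they were 1 as reported, 3 with no filter and 0 in those same 4. In the nodules, members past 2-fold were 1 as reported, 2 with 75th percentile centring, 2 by mean log2 and 0 with the mean of probe sets.

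Leaving out 1 array gave 0 to 9 genes and 0 members called for genotype, 5 to 23 genes and 0 to 1 members for sex, and 0 genes for HCC. These 3 comparisons then had no residual degrees of freedom of their own and were refitted over all remaining arrays. That model called no member even with all 10, so a count of 0 members does not set an array apart. Leaving out 1 array could thus gain a member call there but not lose one. It gave 2 to 145 genes over all lesions and 0 to 354 genes and 0 to 1 members for age. The lesion count was 145 without the male HCC and 139 without its adjacent liver, and the age count was 354 without the female 11-week pool, 153 without the liver beside the nodules and 12 without the liver beside the female HCC.

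Values of members that changed sign were as follows, as log2 differences. Serpina11 by sex was -0.73 in the model of all 10 arrays. Serpina10 over all lesions was 0.00139 with quantile normalization. Serpina4-ps1 over all lesions was -0.46 by mean log2, which picks another probe set. Serpina12 for age was 0.0221 with the mean of probe sets and 1.10 with its dim probe set. The ranges on leaving out 1 array were for genotype -1.67 to 0.25 for Serpina11, -1.55 to 0.82 for Serpina6, -0.32 to 1.28 for Serpina10 and -2.49 to 0.23 for Serpina12. They were for sex -1.21 to -0.88 for Serpina11. They were for HCC -0.34 to 1.74 for Serpina4-ps1, -0.67 to 0.53 for Serpina10, -0.99 to 0.78 for Serpina11, -1.48 to 0.80 for the shared Serpina1e/1c/1b probe set and -0.71 to 4.79 for Serpina12. They were for all lesions -0.0758 to 0.95 for Serpina4-ps1 and -0.57 to 0.0279 for Serpina7. They were for age -0.68 to 1.74 for Serpina7, -0.10 to 1.06 for Serpina10 and -0.54 to 1.48 for Serpina11.

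The labels give no replicate numbers, so the only paired fits were the reported lesion fits, whose mouse term rests on a match in sex and age. Leaving 1 residual degree of freedom, the 4-array comparisons could not show small differences.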
